A study of Mus musculus with 36 samples.

Results

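After 24 h of interleukin-1β (IL-1β), cells with less *Ift88* held less mRNA of *Nos2*, *Ptgs2*, *Ptges*, *Il6*, *Lif*, *Mmp3* and *Mmp13*, and more of *Sox9*, *Mest*, *Nov* and *Comp*, than control cells. Most members of the gene groups to which these belong were not called. The comparison took 6 of the 36 libraries of the study. They were 3 libraries of cells transfected with a pool of small interfering RNAs (siRNAs) against *Ift88* (IFT88siRNA) and 3 of cells given a pool of non-targeting siRNAs (NT), each harvested 24 h after IL-1β was added at 10 ng/ml. All were chosen by their labels, from a wild-type mouse fibroblast-like chondrocyte line that is conditionally immortalised. The cells were transfected before they were confluent, and per the labels had grown to confluence when the time course began. The labels give 50 nM siRNA, whereas the methods give a lower concentration. The labels do not say whether the 3 replicates of a group came from separate cultures, so that the p-values measure the spread between these libraries, which may be technical.

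IFT88 is a subunit of intraflagellar transport complex B (IFT-B), which carries cargo along the microtubules of the primary cilium and is needed to build that organelle. IL-1β binds its receptor with the accessory protein IL1RAP, and the signal activates nuclear factor κB (NFκB), which is held in the cytoplasm by inhibitors, and the mitogen-activated protein kinases that act on activator protein 1 (AP-1). In chondrocytes the cytokine is known for raising nitric oxide, prostaglandin E2 and matrix metalloproteinases and for lowering the genes of cartilage matrix.

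The 6 libraries held from 23280819 to 38304127 reads assigned to genes, within 19337022 to 38304127 over all 36, and the deepest of all was IFT88siRNA replicate 2. This number sets the counting error, which is not the only limit on precision. The reads carried no molecular identifiers by which duplicates could be removed. Between 2 libraries of a group, chi-square per degree of freedom was 1.71 to 8.70, where counting error alone gives about 1. Levels are in CPM, read counts scaled to a common library size, with 1 scaling over all libraries. Fibroblast markers were abundant, with a summed level of 7326 to 8780 CPM in NT and 6946 to 7269 CPM in IFT88siRNA libraries. Of the cartilage markers, *Acan* lay at no more than 0.169 CPM and *Matn3* at no more than 0.198 CPM in any library, so that the label of a chondrocyte rested on *Sox9*, *Col2a1*, *Hapln1* and *Comp*. Macrophage markers summed to 5.42 to 6.803 CPM in NT and 4.42 to 4.95 CPM in IFT88siRNA libraries, with *Tyrobp* at 0 throughout, and that sum was mostly *Cd68*. The fibroblast sum was mostly *Fn1* (4928 to 6154 CPM in NT and 4441 to 4724 CPM in IFT88siRNA libraries), while *Col1a2* (1212 to 1357 against 1417 to 1480 CPM) and *Col3a1* (160.1 to 198.2 against 232.0 to 236.8 CPM) were higher in every IFT88siRNA library, and the median log2 difference of the 9 fibroblast markers was -0.00. The part of cell make-up in the results was not tested. Endothelial markers came to at most 1.91 CPM, epithelial markers to at most 1.62 CPM and adipocyte markers to 31.8 to 37.6 CPM in NT and 30.8 to 32.0 CPM in IFT88siRNA libraries, with *Lep* and *Tie1* at 0. Within NT, replicate 3 and replicate 1 lay at opposite ends of the second principal component (-16.4 and 12.2, with the IFT88siRNA libraries between -1.65 and 5.02), which held 25.8% of the variance. The first component (37.9%) placed all NT libraries apart from all IFT88siRNA libraries. Fewer cells of a type and less RNA per cell cannot be told apart in such bulk samples.

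*Ift88* itself was measured at 6.06, 6.36 and 5.93 CPM in NT and at 1.98, 2.26 and 2.36 CPM in IFT88siRNA libraries. The groups did not overlap, and the mean was 0.361 of that in NT (log2 difference -1.47 ± 0.13 (SE), n = 3 per group, edgeR's quasi-likelihood test with Benjamini-Hochberg adjustment, adjusted p = 7.28e-08). The gene lies on GRCm38 chromosome 14 from 57424062 to 57517936 on the plus strand. Of 17 members of IFT-B tested, *Ift88* was the only one called, and the highest log2 difference in the list was 0.13. None of 11 members of IFT-A and dynein-2, 12 of the BBSome and 22 of the transition zone and ciliary membrane passed both thresholds. *Ttbk2*, a kinase needed to start cilium assembly, passed the adjusted p alone (31.3 against 25.6 CPM, log2 difference -0.29 ± 0.07, edgeR adjusted p = 0.0134), and *Nphp4* of the transition zone gave 0.01 ± 0.10.

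Of 15223 genes tested, 184 (1.21%) passed an adjusted p under 0.05 with a fold change over 1.5, which is what "called" means here. Of these, 87 (0.572%) were higher and 97 (0.637%) lower in IFT88siRNA cells. Adjusted p alone took 608 higher (3.99%) and 831 lower genes (5.46%). The groups did not overlap in CPM for all 184 called genes and for 26.6% of all genes tested. Changes were moderate, the largest being 3.37-fold downwards and 3.02-fold upwards. The median log2 difference of all genes was -0.00, and 34 of the called genes were members of the lists of pathways, complexes and cell types described here. Leaving out IFT88siRNA replicate 2 left 113 calls, 56 higher and 57 lower, DESeq2 gave 109 (58 higher and 51 lower), and a limma fit of the transcript abundances gave 64.

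**Figure D1:**
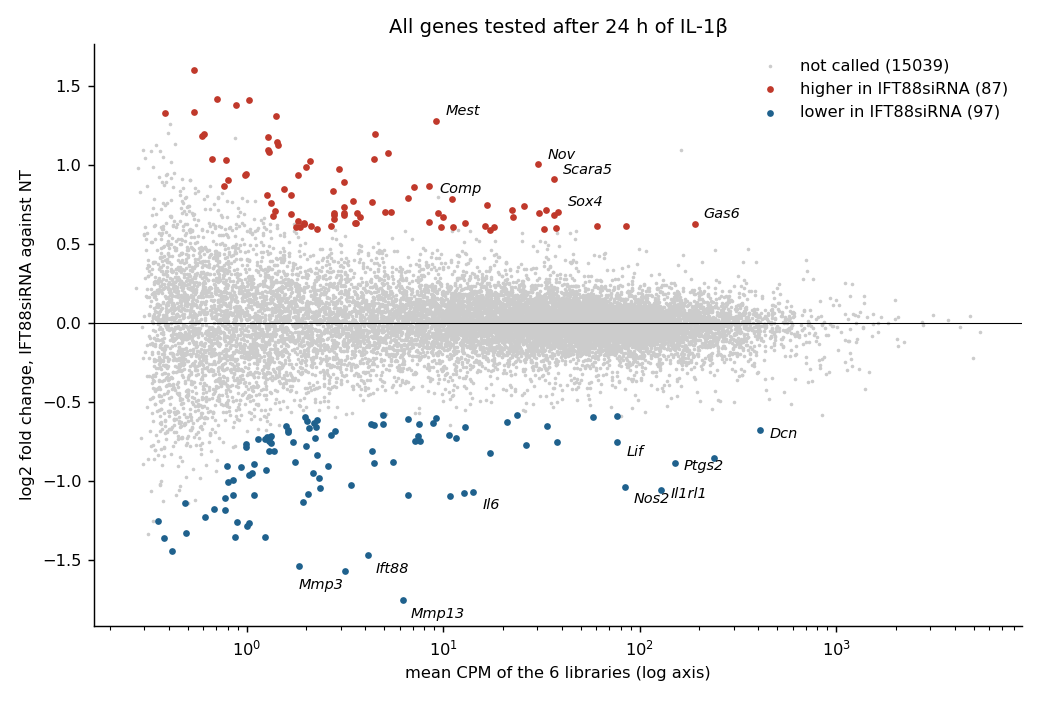
Mean level of each tested gene (x, CPM, log axis) against its log2 difference between IFT88siRNA and NT at 24 h (y), 1 point per gene. The 87 genes called higher (red) and the 97 called lower (blue) lie within 3.37-fold of no change, and the named falls such as *Dcn*, *Il1rl1*, *Ptgs2* and *Nos2* are at the abundant end.

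Matrix metalloproteinases gave the largest falls. *Mmp13*, the main collagenase of cartilage, was measured at 11.6, 8.70 and 8.43 CPM in NT and at 3.29, 2.30 and 3.11 CPM in IFT88siRNA libraries. It fell by 1.75 ± 0.15 on the log2 scale (adjusted p = 1.25e-06). *Mmp3* (stromelysin-1, which cleaves proteoglycans and activates other proenzymes) was at 4.97, 4.05 and 5.08 CPM in NT and 1.98, 1.42 and 1.46 CPM in IFT88siRNA libraries. It fell by 1.57 ± 0.16 on the log2 scale (adjusted p = 7.83e-07). In both genes every NT library was above every IFT88siRNA library, with NT replicate 1 the highest for *Mmp13*. *Mmp10* (stromelysin-2), which lies with these 2 on chromosome 9, was at 1.53, 1.23 and 1.02 CPM against 0.554, 0.480 and 0.550 CPM and fell by 1.26 ± 0.26 on the log2 scale (adjusted p = 0.00297). These 3 stretches run from 7272514 to 7283331 (*Mmp13*), 7445822 to 7455975 (*Mmp3*) and 7502352 to 7510240 (*Mmp10*) on GRCm38, all on the plus strand. The other 12 tested members of the list of metalloproteinases and their inhibitors were not called, and the list's median was 0.07. Membrane-type *Mmp14* was at 220.5 against 266.5 CPM, and of the inhibitors *Timp1* was at 503.8 against 375.9 CPM and *Timp3* at 1099 against 1303 CPM, all 3 past the adjusted p alone.

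The 250 bases upstream of the annotated starts of these genes were searched for 2 motifs on both strands, since members of the group that fell are known targets of AP-1 and NFκB. The motif TGANTCA stood for AP-1, and GGGA and TTTCC with 1 base of any kind between them for NFκB. Sequences are from RefSeq on build GRCm38.p6, written 5′ to 3′, with matches in capitals. The windows printed are those of named falls that hold a match. No match was found for the named falls *Ift88*, *Ptgs2*, *Ptges*, *Il1rl1*, *Rgs16*, *Htr2a*, *Hhip*, *Ptgfr*, *Areg*, *Slc7a11* and *Saa1*. The named falls *Nos2*, *Csf3*, *Ereg*, *Dcn*, *Fosl1* and *Cd93* had no window and were not searched. Of named genes not called, *Nphp4* held an AP-1 match, while *Jun*, *Il1rap* and *Ttbk2* held none.

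Mmp13, chr9:7272264-7272513, plus strand: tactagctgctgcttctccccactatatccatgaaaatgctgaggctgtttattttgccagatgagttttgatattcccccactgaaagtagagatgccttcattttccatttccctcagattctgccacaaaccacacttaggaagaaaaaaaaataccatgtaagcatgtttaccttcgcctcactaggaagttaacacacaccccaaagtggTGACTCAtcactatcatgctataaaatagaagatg

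Mmp3, chr9:7445572-7445821, plus strand: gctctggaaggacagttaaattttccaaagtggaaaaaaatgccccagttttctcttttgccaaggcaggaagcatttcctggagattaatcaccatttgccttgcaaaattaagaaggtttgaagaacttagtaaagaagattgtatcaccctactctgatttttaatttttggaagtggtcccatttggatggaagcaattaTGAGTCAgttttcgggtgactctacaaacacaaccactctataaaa

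Serpinb2, chr1:107511173-107511422, plus strand: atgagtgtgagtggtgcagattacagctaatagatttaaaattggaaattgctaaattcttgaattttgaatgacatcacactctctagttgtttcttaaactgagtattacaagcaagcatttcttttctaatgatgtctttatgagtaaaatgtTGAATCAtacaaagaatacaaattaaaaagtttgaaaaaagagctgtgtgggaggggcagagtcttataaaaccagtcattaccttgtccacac

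Il6, chr5:30012864-30013113, plus strand: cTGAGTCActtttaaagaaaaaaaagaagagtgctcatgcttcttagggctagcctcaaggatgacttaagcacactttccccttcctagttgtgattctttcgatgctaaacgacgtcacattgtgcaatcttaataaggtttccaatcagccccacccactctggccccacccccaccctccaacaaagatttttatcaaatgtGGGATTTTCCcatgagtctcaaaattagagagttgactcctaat

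Cxcl2, chr5:90903649-90903898, plus strand: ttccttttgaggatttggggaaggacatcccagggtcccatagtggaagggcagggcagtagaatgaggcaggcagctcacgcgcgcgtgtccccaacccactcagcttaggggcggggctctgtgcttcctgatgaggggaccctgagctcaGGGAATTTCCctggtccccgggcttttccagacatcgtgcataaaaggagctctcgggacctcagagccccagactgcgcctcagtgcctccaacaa

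Lif, chr11:4257318-4257567, plus strand: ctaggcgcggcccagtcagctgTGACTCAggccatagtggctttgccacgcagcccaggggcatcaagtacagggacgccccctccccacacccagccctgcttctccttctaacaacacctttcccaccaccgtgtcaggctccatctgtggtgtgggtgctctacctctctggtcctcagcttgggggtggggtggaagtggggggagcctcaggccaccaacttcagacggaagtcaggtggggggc

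The match began 35 bases before the start in *Mmp13*, 46 in *Mmp3* and 94 in *Serpinb2*, whose second annotated start has the same match at 181. In *Il6* an AP-1 match began 249 bases before the start and an NFκB match at 44, in *Cxcl2* the NFκB match began at 97, and in *Lif* the AP-1 match at 228. Windows were found for 69 of the 97 genes that fell, 52 of the 87 that rose and 10486 of the symbols tested. The AP-1 letters were in 17 of the 69 (24.6%), against 2 of the 52 (3.85%), 5.74% of all tested genes with a window and 7.82% of all 27025 genes in the table. Among the 17 were also *Mmp10*, *Il13ra2*, *Hdac9*, *Adam19* and *Upp1*. The longer NFκB letters were in 2 of the 69 (2.90%), none of the 52, 0.458% of the tested genes and 0.414% of all genes in the table. A match is a description of the letters and not of a bound site, and no test was made of these shares.

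Of the nitric oxide genes, *Nos2* (inducible nitric oxide synthase) was measured at 120.1, 109.2 and 108.6 CPM in NT and at 57.4, 53.8 and 54.1 CPM in IFT88siRNA libraries. It fell by 1.04 ± 0.05 on the log2 scale (adjusted p = 1.67e-11). NT replicate 1 was the highest library, and the groups did not overlap. *Arg2*, an arginase that uses the same substrate, was at 1.72, 1.12 and 1.42 CPM against 0.673, 0.816 and 0.776 CPM and fell by 0.89 ± 0.24 on the log2 scale (adjusted p = 0.0196). The other 8 of the 10 list members tested were not called, and the median was -0.27. *Slc7a2*, an arginine transporter, was at 622.2 against 459.5 CPM and *Ass1*, which remakes arginine, at 80.0 against 69.8 CPM, both lower at adjusted p alone.

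Prostaglandin E2 is made by cyclooxygenase-2 (*Ptgs2*) and the terminal synthase *Ptges*. *Ptgs2* was at 205.4, 193.1 and 187.5 CPM in NT and 115.1, 101.6 and 101.7 CPM in IFT88siRNA libraries, a fall of 0.89 on the log2 scale (SE 0.05, adjusted p = 5.64e-10). *Ptges* was at 18.7, 17.4 and 15.5 CPM against 8.91, 7.78 and 7.92 CPM, a log2 difference of -1.08 ± 0.09 (adjusted p = 3.33e-08). No NT library was as low as any IFT88siRNA library for either gene. The transcript abundances gave *Ptges* a smaller log2 difference of -0.70 on the log2(TPM + 1) scale, which missed the threshold (limma adjusted p = 0.114). The receptor *Ptgfr*, which binds prostaglandin F2α, also fell (9.54, 10.3 and 8.20 against 4.63, 6.12 and 6.05 CPM), a call lost on the same scale (limma adjusted p = 0.0584). The remaining 10 of the 12 tested list members were not called, 4 of them lower at adjusted p alone, among them the prostaglandin transporter *Slco2a1* (63.8 against 45.9 CPM).

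**Figure D2:**
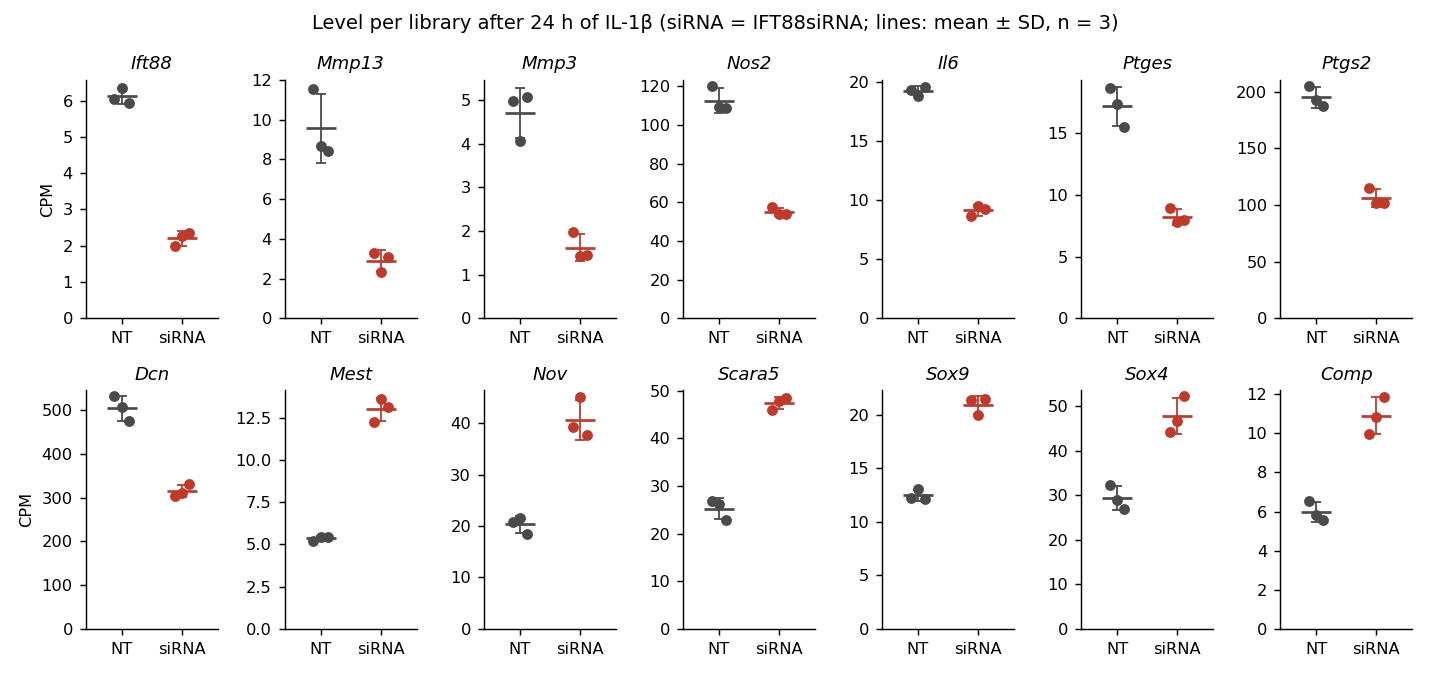
Level of 14 genes (y, CPM, axes from 0) in each NT (grey) and IFT88siRNA (red) library after 24 h of IL-1β, with points for libraries and lines for the mean ± SD (n = 3). In all 14 panels the 2 groups are apart, with *Nos2* at 108.6 to 120.1 CPM in NT and 53.8 to 57.4 CPM in IFT88siRNA libraries.

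The secreted cytokines *Il6*, *Lif* and *Csf3* fell. *Il6*, the acute-phase cytokine, was at 19.3, 18.8 and 19.6 CPM in NT and 8.63, 9.48 and 9.25 CPM in IFT88siRNA libraries (log2 difference -1.07 ± 0.07, adjusted p = 3.47e-09). *Lif*, of the same family, was at 98.1, 94.1 and 96.5 CPM against 57.5, 57.4 and 56.6 CPM (log2 difference -0.76 ± 0.05, adjusted p = 3.65e-10). Neither gene had any overlap between the groups. The other 12 of 14 members of the IL-6 family and its receptors were not called, with the receptor chain *Lifr* on the other side (log2 difference 0.37 ± 0.09, past the adjusted p alone). *Csf3*, the granulocyte growth factor, fell from 5.77 ± 0.852 to 3.13 ± 0.369 CPM (mean ± SD, n = 3, log2 difference -0.89 ± 0.13, adjusted p = 1.11e-04), the 1 call among 5 haematopoietic growth factors tested.

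Of 9 CXC chemokines tested, *Cxcl2* was called (2.84, 2.53 and 3.01 against 1.11, 1.37 and 1.46 CPM, log2 difference -1.08 ± 0.18, adjusted p = 2.63e-04). *Cxcl1*, *Cxcl3* and *Cxcl5*, neutrophil attractants beside it on chromosome 5, were lower at adjusted p alone, *Cxcl1* at 687.1 against 482.7 CPM. None of 7 CC chemokines was called. *Ccl2*, which attracts monocytes, was at 386.8, 360.6 and 351.6 CPM against 289.4, 286.8 and 298.5 CPM, groups that did not overlap but differed by less than the fold threshold (log2 difference -0.33 ± 0.05, edgeR adjusted p = 6.95e-05). The CXC list had a median of -0.28 and the CC list one of -0.18, beside -0.00 for all genes.

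Among the IL-1 family and its receptors, 1 of 17 was called. *Il1rl1*, the receptor of IL-33, was at 189.1, 169.6 and 161.0 CPM in NT and 90.1, 79.8 and 80.2 CPM in IFT88siRNA libraries (log2 difference -1.06 ± 0.06, adjusted p = 1.11e-08). *Il1rap* was at 166.7, 165.5 and 154.5 CPM against 118.2, 114.1 and 107.2 CPM (log2 difference -0.52 ± 0.05, adjusted p = 2.61e-07), short of the fold threshold. Of the downstream NFκB genes, none of 23 was called and 5 were lower at adjusted p alone, including the subunit *Rela* (154.7 against 120.2 CPM) and the feedback inhibitor *Tnfaip3* (62.8 against 52.1 CPM). The list's median was -0.08. Of 28 AP-1 and early genes, *Fosl1*, an AP-1 subunit, was called at 94.9, 92.8 and 88.0 CPM against 61.1, 60.3 and 62.0 CPM. Its log2 difference of -0.59 ± 0.05 (adjusted p = 2.22e-08) lies just past the fold threshold and fell short of it without NT replicate 1 (-0.57) or IFT88siRNA replicate 2 (-0.58). *Jun* was at 133.7, 131.4 and 122.1 CPM against 118.6, 122.3 and 131.3 CPM and the groups overlapped (log2 difference -0.06 ± 0.05). The list's other genes gave 8 lower and 1 higher at adjusted p alone, among them *Egr1* (172.9 against 134.2 CPM) and *Spry2* (16.1 against 11.3 CPM), and its median was -0.15.

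Of 21 growth factors tested 2 fell and 1 rose. *Ereg* (epiregulin), a ligand of the epidermal growth factor receptor, was at 315.4, 314.5 and 290.6 CPM in NT and 176.0, 170.1 and 163.2 CPM in IFT88siRNA libraries (log2 difference -0.86 ± 0.05, adjusted p = 2.36e-10). Its neighbour *Areg* (amphiregulin), a ligand of the same receptor, was at 2.95, 2.71 and 2.54 CPM against 1.90, 1.49 and 1.88 CPM (log2 difference -0.66 ± 0.17, adjusted p = 0.0132). *Areg* was lost without IFT88siRNA replicate 2 (adjusted p = 0.122) and in DESeq2 (adjusted p = 0.0637). *Fgf18*, a growth factor of cartilage, rose from 0.543 to 0.989 CPM (adjusted p = 0.0419), and the other 18 were not called, *Fgf2* being at 33.5 against 23.5 CPM. *Serpinb2*, an inhibitor of plasminogen activators, was at 2.80, 2.60 and 2.85 CPM against 0.752, 1.08 and 0.938 CPM (log2 difference -1.54 ± 0.19, adjusted p = 8.64e-06), 1 of 9 in its list. The other named falls were the G-protein regulator *Rgs16* (log2 difference -1.10 ± 0.09), the serotonin receptor *Htr2a* (-1.09 ± 0.11), the C-type lectin receptor *Cd93* (-1.13 ± 0.18), the cystine carrier *Slc7a11* (-0.66 ± 0.08, but -0.21 on the log2(TPM + 1) scale, limma adjusted p = 0.655), the acute-phase gene *Saa1* (-0.64 ± 0.11) and *Hhip* (-0.95 ± 0.17), which binds Hedgehog ligands. *Hhip* was the only called member of 16 in the Hedgehog pathway, at 2.73, 3.31 and 2.54 CPM against 1.47, 1.61 and 1.33 CPM. The receptor *Ptch1* was at 246.8 against 205.4 CPM and the signal transducer *Smo* at 194.1 against 231.4 CPM, both past the adjusted p alone.

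Of 9 Sox and Runx factors tested, 2 rose. *Sox9*, the main transcription factor of cartilage, was at 12.2, 13.0 and 12.1 CPM in NT and 21.4, 19.97 and 21.4 CPM in IFT88siRNA libraries (log2 difference 0.74 ± 0.07, adjusted p = 2.66e-07). *Sox4*, a related factor, was at 32.2, 28.8 and 27.0 CPM against 44.3, 46.7 and 52.2 CPM (log2 difference 0.70 ± 0.07, adjusted p = 3.85e-06). On the log2(TPM + 1) scale the difference of *Sox4* was 0.55, under the fold threshold. *Comp*, a cartilage matrix protein, was at 6.54, 5.80 and 5.59 CPM against 9.98, 10.8 and 11.9 CPM (log2 difference 0.87 ± 0.10, adjusted p = 3.33e-06). It was the only call of 11 cartilage matrix genes, whose median was -0.09, and *Col2a1*, the fibrillar collagen of cartilage, was lower at adjusted p alone (10.3 against 7.63 CPM). *Hapln1*, which links aggrecan to hyaluronan, was also lower at adjusted p alone (9.91, 9.78 and 9.04 against 8.51, 7.23 and 6.73 CPM). The 8 chondrocyte markers summed to 48.3 to 50.1 CPM in IFT88siRNA and 40.0 to 41.6 CPM in NT libraries, with *Sox9* and *Comp* higher and *Col2a1* and *Hapln1* lower, and the median log2 difference of the 5 tested was -0.13.

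Small leucine-rich proteoglycans bind collagen fibrils in the matrix, and in a list of them and of hyaluronan genes 3 of 17 tested rose and 1 fell, all 4 of them small proteoglycans. *Fmod* (fibromodulin) was at 3.29, 3.05 and 3.32 CPM in NT and 5.82, 6.12 and 4.46 CPM in IFT88siRNA libraries, a call lost on the log2(TPM + 1) scale (limma adjusted p = 0.141). *Omd* (osteomodulin) went from 2.79 ± 0.365 to 4.30 ± 0.359 CPM and *Aspn* (asporin) from 8.89 ± 1.64 to 13.5 ± 1.46 CPM. *Dcn* (decorin) went the other way, from 531.5, 506.7 and 473.9 CPM to 304.0, 310.6 and 330.4 CPM (log2 difference -0.68 ± 0.05, adjusted p = 1.58e-08). The rise of *Omd* did not hold without IFT88siRNA replicate 2 (adjusted p = 0.0555) or on the log2(TPM + 1) scale (limma adjusted p = 0.0886). It fell short of the fold threshold without NT replicate 3 (log2 difference 0.53). In the collagens 1 of 20 was called, *Col8a2* (2.84, 2.75 and 1.69 against 3.52, 4.27 and 3.72 CPM). That call was lost without NT replicate 3 (adjusted p = 0.0538) or IFT88siRNA replicate 2 (adjusted p = 0.0942), and on the log2(TPM + 1) scale (limma adjusted p = 0.238). With *Col8a2*, 6 collagens were higher and 1 lower at adjusted p alone, *Col6a1* being at 600.3 against 793.8 CPM, and the list's median was 0.03. In the contractile list 8 of 17 genes were higher at adjusted p alone and none was called, and its median was 0.19, *Acta2* (smooth muscle actin) being at 295.9 against 410.0 CPM.

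Among the largest rises, *Mest*, an imprinted gene, was at 5.198, 5.43 and 5.45 CPM in NT and 12.3, 13.6 and 13.2 CPM in IFT88siRNA libraries (log2 difference 1.28 ± 0.09, adjusted p = 4.25e-09). *Nov* (CCN3, a matricellular protein) was at 20.9, 21.6 and 18.4 CPM against 39.2, 45.0 and 37.7 CPM (log2 difference 1.003 ± 0.07, adjusted p = 7.28e-08). *Scara5*, a receptor for ferritin, was at 26.9, 26.2 and 22.8 CPM against 46.0, 47.8 and 48.5 CPM (log2 difference 0.91 ± 0.06, adjusted p = 3.09e-09). The groups did not overlap for any of the 3, which were 2.43-fold, 2.004-fold and 1.88-fold higher. *Clec3b* (tetranectin), *Adamtsl1*, *Cped1*, *4833423E24Rik*, *Pgm5*, the water channel *Aqp5* and the metabolic coactivator *Ppargc1a* rose by 0.97 to 1.196 on the log2 scale, at means of 0.912 to 3.38 CPM in NT. The calls of *Adamtsl1* and *Cped1* were lost on the log2(TPM + 1) scale (limma adjusted p = 0.212 and 0.464). Without the filter, those of *Pgm5*, *4833423E24Rik*, *Aqp5* and *Ppargc1a* were lost there too (limma adjusted p = 0.0914 to 0.732). The same unfiltered fit lost the calls of *Lif*, *Mmp3*, *Comp*, *Htr2a*, *Csf3*, *Cd93* and *Hhip* described above (limma adjusted p = 0.0529 to 0.448). *Gas6*, a ligand of TAM receptors, rose at a high level (159.4, 151.8 and 136.9 against 227.3, 234.9 and 231.5 CPM).

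**Figure D3:**
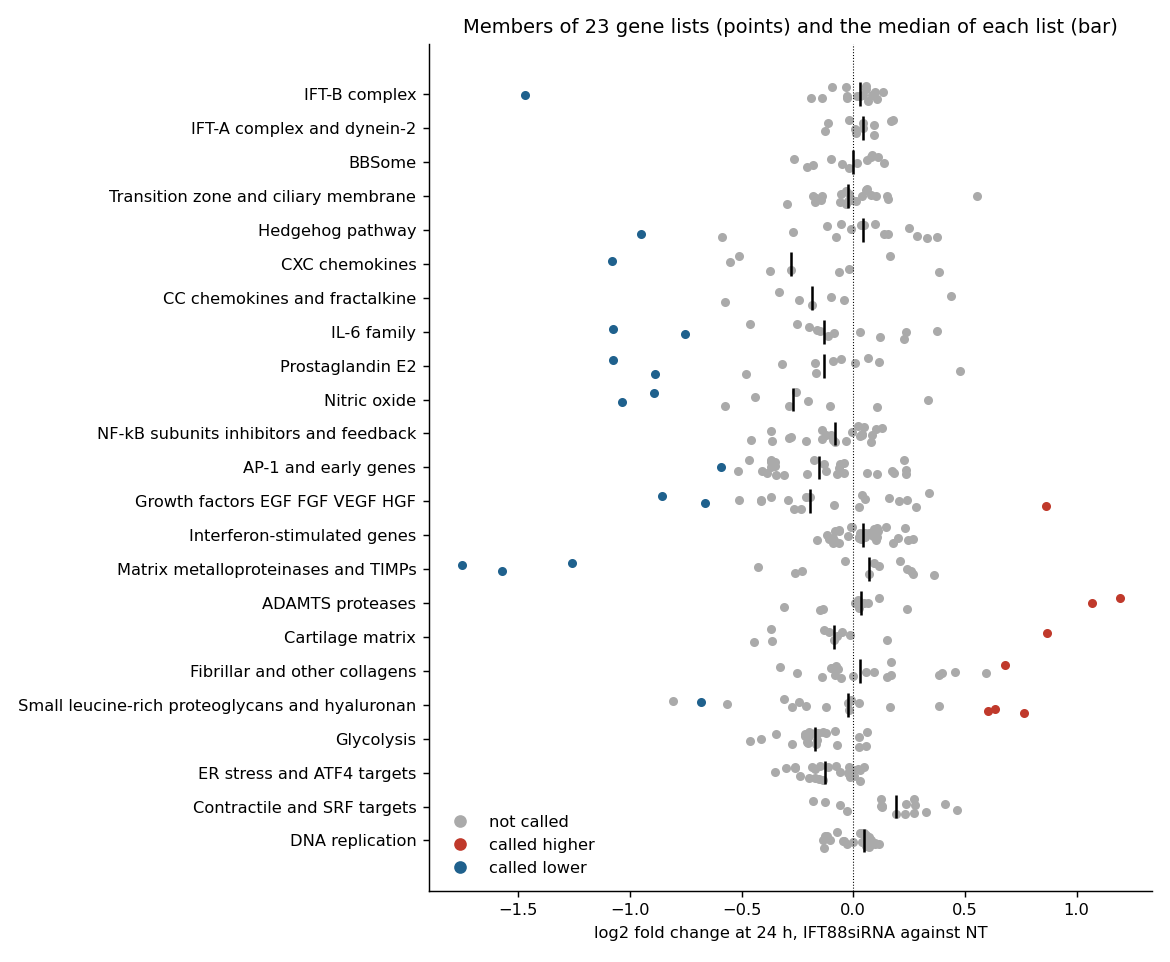
Log2 difference between IFT88siRNA and NT at 24 h (x) of every tested member of 23 gene lists (y), 1 point per gene, coloured by call, with a bar at each list's median. The medians of the 4 ciliary lists lie near 0. Called falls lie in the IFT-B, Hedgehog, CXC chemokine, IL-6, prostaglandin E2, nitric oxide, AP-1, growth factor, metalloproteinase and proteoglycan lists, and called rises in the growth factor, ADAMTS, cartilage matrix, collagen and proteoglycan lists.

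Many lists gave no called gene. No member of mitosis (26 tested), DNA replication (27), cholesterol synthesis (26), the interferon-stimulated genes (35) or the large ribosomal subunit (33) was called. Glycolysis had 10 of 23 lower at adjusted p alone and a median of -0.17, with the lactate exporter *Slc16a3* at 38.5 against 28.1 CPM. Endoplasmic reticulum stress and ATF4 targets had 8 of 24 lower at adjusted p alone and a median of -0.12. *Hmga1* (69.1 against 45.9 CPM) and its near copy *Hmga1b* (40.9 against 26.1 CPM) fell together, but reads shared between the copies make the values of each uncertain. By its default the counting took no strand, so the fall of *Ptgs2os* cannot be told apart from reads of *Ptgs2*. *Junos* fell (log2 difference -0.61), whereas *Jun* was not called (-0.06). The part of reads from the other strand was not tested.

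How the genes that fell behave under IL-1β in control cells was read from libraries that are not in the 24 h comparison, NT at 8 h against NT at 0 h. There 1746 of 15230 genes (11.5%) were raised and 1268 (8.33%) lowered. Of the 97 genes that fell in IFT88siRNA cells, 91 were tested, and 63 (69.2%) were raised by IL-1β and 6 (6.59%) lowered. Of the 87 that rose, 17 (19.5%) were raised and 29 (33.3%) lowered. *Nos2* went from 0.0423 CPM in 1 library and 0 in the other 2 at 0 h to 97.4 to 109.5 CPM at 8 h. *Il6* was raised by 7.93 on the log2 scale, *Mmp13* by 5.36 and *Dcn* by 3.92, whereas *Omd* fell by 1.72 and *Mest* by 0.72.

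**Figure D4:**
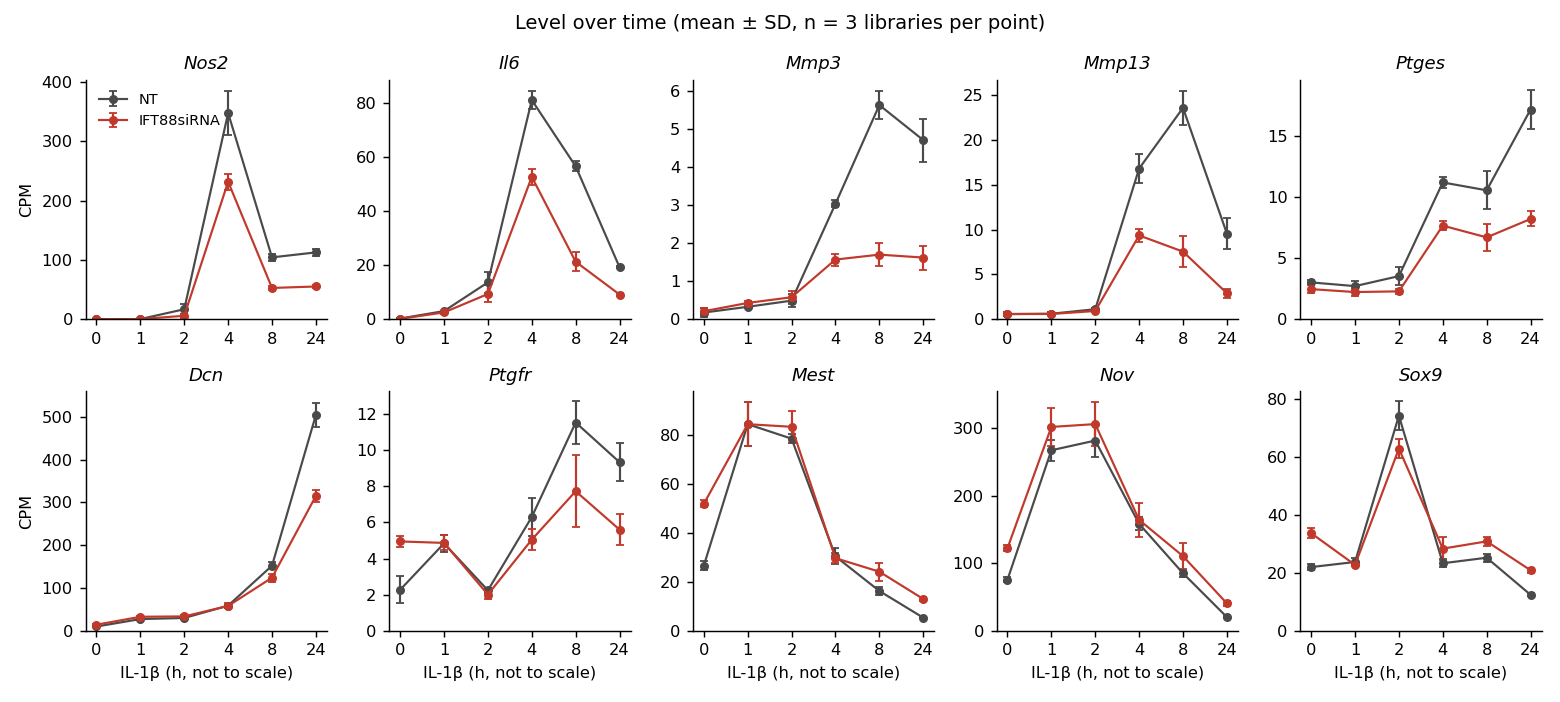
Mean level (y, CPM, axes from 0, bars are SD, n = 3 libraries) of 10 genes at 0, 1, 2, 4, 8 and 24 h of IL-1β (x, not to scale) in NT (grey) and IFT88siRNA (red) cells. *Nos2* and *Il6* peak at 4 h and stay lower in IFT88siRNA cells at 8 and 24 h, *Dcn* is at 504.1 against 315.0 CPM at 24 h, and *Mest* and *Nov* are higher in IFT88siRNA cells at 0 and 24 h. At 1 h *Mest* is at 84.4 CPM in both groups.

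Whether the 24 h differences were already there before IL-1β was read from the 0 h libraries, in which 333 of 15274 genes (2.18%) were called. Of the 184 genes called at 24 h, 53 were also called at 0 h (28.8% of the 184 and 15.9% of the 333), 27 higher in both, 25 lower in both and 1, *Ptgfr*, in opposite directions. Only 155 of the 184 were tested at 0 h, and 140 of these had the same direction there, called or not. The same share over all genes was not taken. Among the genes in both were *Mest* (log2 difference 0.96 ± 0.06 at 0 h), *Nov* (0.69 ± 0.05), *Sox9* (0.61 ± 0.06), *Il1rl1* (-1.18 ± 0.07), *Ereg* (-0.66 ± 0.06) and *Fosl1* (-0.68 ± 0.05). Not all of these stayed apart in between. At 1 h, in NT and IFT88siRNA cells, *Mest* was at 84.4 and 84.4 CPM, *Sox9* at 23.8 and 22.8 CPM and *Ereg* at 756.9 and 769.6 CPM. *Nov* was at 267.4 and 302.0 CPM, *Fosl1* at 290.3 and 264.3 CPM and *Il1rl1* at 59.0 and 29.5 CPM. *Nos2*, *Il6*, *Mmp3*, *Cxcl2*, *Csf3* and *Serpinb2* were too low at 0 h to be tested. At 8 h, 125 of 15165 genes (0.824%) were called, and 41 of them were among the 184 (22.3% of the 184 and 32.8% of the 125), 8 higher and 33 lower in both. Of the 184, 173 were tested at 8 h and 156 of these had the same direction. *Nos2* at 8 h was at 104.3 ± 6.199 CPM in NT and 52.6 ± 3.51 CPM in IFT88siRNA cells (log2 difference -1.004 ± 0.06, edgeR adjusted p = 1.54e-06), beside -1.04 ± 0.05 at 24 h. *Mmp13* at 8 h gave -1.68 ± 0.13 and *Il6* -1.43 ± 0.10.

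The difference between the 2 comparisons was tested itself. Of 15981 genes, 32 (0.2%) had a difference at 24 h that differed from that at 0 h, 12 upwards and 20 downwards. Opposite signs at the 2 times were seen in 25 of the 32, which choosing genes by that difference favours. Of the 32, 12 were called at 24 h, 10 at 0 h and only 1, *Ptgfr*, at both. Leaving out NT replicate 3 raised the 32 to 103 genes and turned the balance, with 79 upwards and 24 downwards, and leaving out IFT88siRNA replicate 2 left 21. *Thbd* (thrombomodulin) and *Dcn* shared the lowest adjusted p. *Thbd*, named after its value was seen, was at 90.1 and 126.2 CPM at 0 h and at 150.5 and 112.1 CPM at 24 h in NT and IFT88siRNA cells (difference of the log2 differences -0.91 ± 0.07, adjusted p = 1.86e-09). *Dcn* at 0 h was at 10.0 ± 0.602 CPM in NT and 14.2 ± 0.704 CPM in IFT88siRNA cells, and at 24 h at 504.1 ± 28.9 and 315.0 ± 13.7 CPM (difference of the log2 differences -1.18 ± 0.09, adjusted p = 1.86e-09). *Ptgfr* turned from 1.12 ± 0.17 to -0.72 ± 0.11 (adjusted p = 2.54e-05). *Lum* (lumican, another small proteoglycan) and the metalloreductase *Steap4* were called higher at 0 h and not called at 24 h, *Steap4* at 0.822 and 2.02 CPM at 0 h against 88.6 and 84.4 CPM at 24 h. *Mmp13* went from 0.03 ± 0.33 to -1.75 ± 0.15 (adjusted p = 0.0263), but at 0 h its level was only 0.564 and 0.579 CPM, and without IFT88siRNA replicate 2 the adjusted p was 0.0502. *Ptges* (-0.29 ± 0.15 at 0 h), *Cd93*, *Nt5e* (an ectonucleotidase) and *Kcna4* were lower at 24 h beyond their difference at 0 h. *Aqp5*, *Pgm5*, *4833423E24Rik* and *Omd* rose at 24 h beyond it, with *Pgm5* losing that call in DESeq2 (adjusted p = 0.0587), with the replicate block (adjusted p = 0.0528), and without NT replicate 1 or 2 or IFT88siRNA replicate 1 or 2 (adjusted p = 0.0619 to 0.220). *Aqp5* lost it without NT replicate 2 (adjusted p = 0.0682) or IFT88siRNA replicate 2 (adjusted p = 0.0685). Of the Hedgehog genes *Ptch1* was in this set, at 44.7 against 56.3 CPM at 0 h and 246.8 against 205.4 CPM at 24 h.

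**Figure D5:**
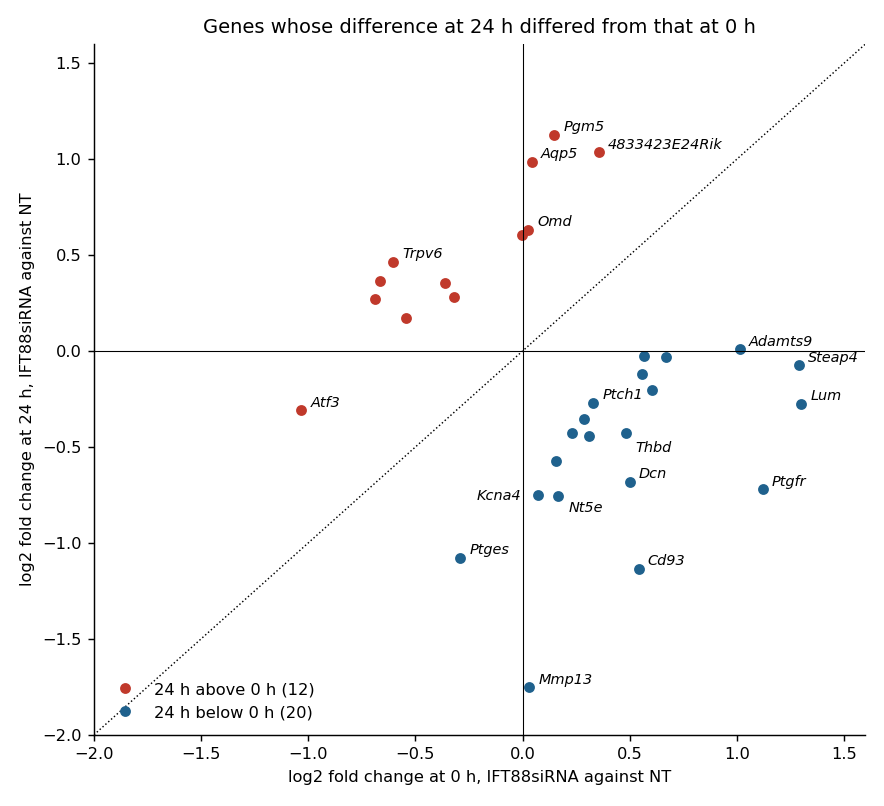
Log2 difference between IFT88siRNA and NT at 0 h (x) and at 24 h (y) for the 32 genes in which they differed, chosen by that test, with the dotted line marking equal differences. The 20 genes below the line include *Mmp13*, *Ptgfr*, *Dcn* and *Lum*, and the 12 above it include *Pgm5*, *Aqp5* and *Omd*.

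Against 8 h, 11 of 15890 genes (0.0692%) differed, 8 upwards and 3 downwards. *Mest* (0.56 ± 0.11 at 8 h and 1.28 ± 0.09 at 24 h), *Comp* (0.28 ± 0.07 and 0.87 ± 0.10) and *Ppargc1a* (0.06 ± 0.11 and 1.02 ± 0.18) were the named genes among them. The split did not hold when 1 library was left out. It was 7 upwards and 2 downwards without NT replicate 1, 1 and 2 without NT replicate 2, 2 and 4 without NT replicate 3, and 3 and 3, 2 and 2, and 2 and 3 without IFT88siRNA replicates 1, 2 and 3.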

How the data were processed

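Poly(A) RNA of NT and IFT88siRNA cells was sequenced at 6 times from 0 to 24 h of IL-1β, with 3 libraries per group and time. The authors aligned the reads to GRCm38 with HISAT2 2.1.0 and deposited raw counts per gene from featureCounts (Subread 1.6.3), unnormalized, and a separate table of TPM per gene that Salmon 0.9.1 gave. Versions are from the submitters' processing notes, and default counting parameters, as the methods give, take no strand. The assignment of libraries to lanes or days is not given in the sources used here.

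From the counts, edgeR 4.0.16 (R 4.3.3, TMM scaling, filterByExpr, robust quasi-likelihood F-test, two-sided) compared the 3 IFT88siRNA with the 3 NT libraries of 24 h, without a block. P-values were adjusted by Benjamini-Hochberg over all genes tested. An adjusted p given without a tool's name is from edgeR. It is from this fit unless its passage names the difference between times or an alternative setting. The difference between times was an interaction contrast over 12 libraries. DESeq2 1.42.0 on the counts and limma 3.58.1 on log2(TPM + 1), for genes with at least 1 TPM in 3 libraries, were alternatives, as were other scalings, no filter, the replicate block, all 36 libraries in 1 model and leaving out each library. Fold changes of limma are on the log2(TPM + 1) scale and understate those of low genes. The scripts were tested on simulated data. Positions and gene classes are from GENCODE M21 (53360 of 53421 IDs matched), upstream windows from RefSeq, matched by symbol, and the figures were drawn with matplotlib in Python.

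Named genes were *Ift88*, genes the study names from its RNA-seq, the 8 largest rises and falls with a mean of at least 50 counts, up to 3 called members of each list, and the 5 largest in each direction that differed between 24 h and 0 h. Other list members are named beside their list's count. Some further genes, among them *Gas6*, *Nt5e*, *Kcna4* and *Hmga1b*, follow none of these rules and were named with their values known. *Tnf*, which the study names, was too low to be tested at 24 h. The comparison and the lists were chosen with earlier results of these data known. The NT comparison of 8 h with 0 h, the upstream motifs and the alternatives of the 0 h and 8 h counts were chosen after seeing the data.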

Additional observations from a re-analysis of the deposited data

Results flagged for a closer look

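A test of the difference between times set 32 genes apart at 24 h against 0 h and 11 at 24 h against 8 h (edgeR, Benjamini-Hochberg adjusted, fold change over 1.5). The values here are the log2 difference between IFT88siRNA and NT at 24 h minus the same difference at the other time. Against 0 h it was -1.84 for *Ptgfr*, -1.78 for *Mmp13*, -1.67 for *Cd93*, -1.57 for *Lum*, -1.36 for *Steap4*, -1.18 for *Dcn* and -0.78 for *Ptges*. It was 1.07 for *Trpv6*, 1.03 for *Gm26873*, 0.99 for *Pgm5*, 0.96 for *Pkp1*, 0.95 for *Aqp5*, 0.68 for *4833423E24Rik* and 0.62 for *Omd*. *Trpv6*, *Gm26873* and *Pkp1* were called lower at 0 h and not called at 24 h. The difference of *Pkp1* missed the threshold in DESeq2 (adjusted p = 0.0686), with all 36 libraries in 1 model (0.122), and without NT replicate 2 or IFT88siRNA replicate 1 or 2 (0.0573 to 0.0849), and that of *Gm26873* with all 36 libraries (0.562). In limma on log2(TPM + 1) those of *Trpv6*, *Gm26873*, *Pkp1*, *Pgm5* and *Lum* missed it (adjusted p = 0.104 to 0.545). On log2(TPM + 0.1) those of *Ptgfr* and *Mmp13* missed it too (limma adjusted p = 0.0615 and 0.207). Without the filter on log2(TPM + 1), so did those of *Ptgfr*, *Mmp13*, *Aqp5* and *Steap4* (limma adjusted p = 0.0711 to 0.0893). Against 8 h it was 0.97 for *Ppargc1a*, 0.73 for *Mest* and 0.59 for *Comp*. *Cd93*, *Lum* and *Mmp13* lay under 1.2 CPM in both groups at 0 h, where counting error is large. No cause was tested.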

How the results depend on the processing

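Of the values of named genes under the alternatives, 726 at 24 h kept their direction and side of the threshold, 55 kept only the direction, 3 passed it anew and 6 turned. Dropping the fold threshold refits nothing, so the values under it are those of the main fit and could not turn. The 3 were *Ccl2*, *Il1rap* and *Ttbk2*, which passed only because that threshold was dropped. The 6 were *Pkp1* (-0.016 on unfiltered log2(TPM + 1)) and *Nphp4* (-0.093 on log2(TPM + 1) with and without the filter, -0.12 on log2(TPM + 0.1), and from -0.039 to 0.045 on leaving out 1 library), neither of which was called. The 184 genes called at 24 h became 109 with DESeq2 (51 lower, 107 of the 109 among the 184), 1439 without the fold threshold (608 higher and 831 lower) and 113 to 187 on leaving out 1 library (56 to 96 higher and 57 to 92 lower). In limma they became 64 on log2(TPM + 1) (27 higher and 37 lower), 70 on log2(TPM + 0.1) (32 and 38) and 37 without the filter (15 and 22). The 333 at 0 h became 165 with DESeq2, 2983 without the fold threshold, and 146, 168 and 88 in the same 3 limma fits. The 125 at 8 h became 210 without the filter on counts, 762 without the fold threshold, 230 with all 36 libraries in 1 model, and 38, 41 and 26 in limma. The 32 that differed from 0 h became 108 without the fold threshold, 21 with all 36 libraries, 16, 14 and 7 in limma, and 21 to 103 on leaving out 1 library. The 11 that differed from 8 h became 21 with DESeq2, 52 without the filter, 48 without the fold threshold, 20 with all 36 libraries, 2, 0 and 2 in limma, and 3 to 9 on leaving out 1 library. The causes were not tested.

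At 24 h, libraries of the same number did not deviate together (r = -0.12, 0.06 and -0.05). With 3 libraries per group this cannot decide whether a number marks a shared culture or batch. With the replicate block, 153 genes were called at 24 h, 341 at 0 h and 159 at 8 h. In the same fits 29 genes differed from 0 h and 26 from 8 h. *Fosl1* fell under the fold threshold with upper-quartile scaling (-0.58), without the filter, and without NT replicate 1 or IFT88siRNA replicate 2. Low genes, such as *Mmp10* and *Pgm5*, rest on about 1 CPM, and depth limits their precision.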

Other observations

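Gene groups that the comparisons above did not describe held a few called genes at 24 h. In the TNF superfamily 2 of 12 rose, *Tnfsf10* (TRAIL, 2.13, 2.42 and 2.57 CPM in NT against 4.12, 4.06 and 3.40 CPM in IFT88siRNA libraries) and *Tnfsf13b* (BAFF, log2 difference 0.76 ± 0.20, adjusted p = 0.0201). The call of *Tnfsf10* was lost with all 36 libraries in 1 model (adjusted p = 0.0724) and in the 3 limma fits (adjusted p = 0.139 to 0.223). Of 12 ADAMTS proteases and relatives 2 rose, *Adamtsl1* and *Adamts14*, the latter at under 1.1 CPM in every library. The call of *Adamtsl1* was lost in the 3 limma fits (adjusted p = 0.212 to 0.417). Outside the lists, *Piezo2*, a mechanically gated channel, was at 7.97, 8.66 and 7.79 CPM against 14.1, 15.1 and 12.7 CPM, *Gpnmb*, a membrane glycoprotein, rose by 0.68 ± 0.06 on the log2 scale, and *Il18rap*, a chain of the IL-18 receptor, fell by 0.75 ± 0.10. These 3 were chosen after their values were seen.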
